A study of Mus musculus with 2 samples.

Results

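The brain neuroblast-like cells were 1522 of the 7988 brain cells kept after filtering (19.1%, exact 95% interval 18.2% to 19.9%), and of 9952 kept cells in the series. Kept cells had between 200 and 4000 genes, both limits left out, and took under 40% of their molecules from mitochondrial genes. A cell was a member when it held a molecule of at least 2 of the 6 genes Dlx1, Dlx2, Dlx5, Dlx6os1, Dcx and Stmn2, and fewer than 2 of the 5 division genes Mki67, Top2a, Ube2c, Cdk1 and Birc5. The members were thus chosen on measured values of the same cells, so the levels below describe them and carry no test.

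RNA was counted in single Sox1-GFP+ cells of the mouse, sorted by flow cytometry from brain (1 library) and from tail (1 library) after the minced tissue had been dissociated with warm trypsin. In these knock-in mice the green fluorescent protein reports activity of Sox1, a transcription factor of the early neuroepithelium. The study's methods give the brain as adult and the tail as postnatal. For strain, the methods say that transgenic lines were crossed in-house to wild-type mice, which were CD1 or mixed CD1 and C3H. The number of mice and any pooling are not given in the sources used here. Each captured RNA molecule carried an identifier, so that PCR copies counted once. With 1 library per tissue there was no replicate, and all intervals cover counting error only.

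Neuroblasts are young, migrating neurons. In the adult rodent brain they arise from stem cells of the ventricular-subventricular zone and move in chains along the rostral migratory stream to the olfactory bulb, where most become GABAergic interneurons. Distal-less homeobox (Dlx) factors direct the development of forebrain GABAergic neurons, doublecortin (Dcx) binds microtubules in migrating neurons, and stathmin-2 (Stmn2) is a growth cone protein that regulates microtubules. A second neurogenic region, the dentate gyrus of the hippocampus, makes glutamatergic granule neurons through intermediate cells that use Eomes and Neurod1.

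The members held 1106043 molecules, at medians of 644 molecules and 479.5 genes in a cell. For the other 6466 kept brain cells the medians were 708 molecules and 431 genes. Mitochondrial molecules made up a median of 8.56% in members and 15.8% in the other cells. Brain and tail shared 29 cell barcode numbers, of which 18 were kept in both libraries and 2 belonged to members. Scrublet called 51 members (3.35%) and 76 of all kept brain cells (0.951%) doublets, and these stayed in.

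Dlx1 (chr2:71528113-71533981, plus strand) and Dlx2 (chr2:71543408-71546754, minus strand) are neighbours, as are Dlx5 (chr6:6877805-6882085, minus strand) and Dlx6 (chr6:6863334-6868568, plus strand). Dcx lies at chrX:143855842-143933311 on the minus strand and Stmn2 at chr3:8509360-8561606 on the plus strand. Islr2 lies at chr9:58196297-58204319 (minus strand), Prokr2 at chr2:132337733-132385447 (minus strand) and Synpr at chr14:13284780-13616340 (plus strand). All positions span whole genes on GRCm38. Dlx6os1 is a long non-coding RNA on the minus strand opposite Dlx6. Whether the counting used strand is not given in the sources used here, so reads of Dlx6os1 and Dlx6 may not be told apart.

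Dlx proteins bind DNA through a homeodomain, for which TAATTA is a typical core. The promoter windows of 3 of the genes that chose the members are shown. Each runs from 250 bases before to 50 bases after a start site (RefSeq, GRCm38.p6), and capitals mark TAATTA, which reads the same on both strands. The window of Dlx1 (chr2:71529195-71529494, plus strand) did not hold it. A start site of Dlx6os1 (chr6:6869484-6869783, minus strand) held 2 copies, and a start site of Dcx (chrX:143933075-143933374, minus strand) held 1. The other start site of Dlx6os1 (chr6:6861634-6861933, minus strand) held 1 copy and is not shown. The other start site of Dcx (chrX:143933170-143933469, minus strand) also held 1 and is not shown.
Dlx1: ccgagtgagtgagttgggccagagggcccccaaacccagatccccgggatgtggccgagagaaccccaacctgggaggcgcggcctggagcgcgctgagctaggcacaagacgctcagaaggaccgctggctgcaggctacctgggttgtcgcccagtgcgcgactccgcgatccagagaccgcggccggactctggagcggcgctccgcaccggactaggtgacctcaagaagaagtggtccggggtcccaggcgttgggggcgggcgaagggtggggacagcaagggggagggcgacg
Dlx6os1: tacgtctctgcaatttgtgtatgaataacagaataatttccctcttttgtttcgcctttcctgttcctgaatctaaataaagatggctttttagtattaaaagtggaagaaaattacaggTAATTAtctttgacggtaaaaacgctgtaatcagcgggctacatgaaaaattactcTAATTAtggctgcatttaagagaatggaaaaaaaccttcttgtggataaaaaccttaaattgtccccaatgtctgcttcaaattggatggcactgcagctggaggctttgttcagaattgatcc
Dcx: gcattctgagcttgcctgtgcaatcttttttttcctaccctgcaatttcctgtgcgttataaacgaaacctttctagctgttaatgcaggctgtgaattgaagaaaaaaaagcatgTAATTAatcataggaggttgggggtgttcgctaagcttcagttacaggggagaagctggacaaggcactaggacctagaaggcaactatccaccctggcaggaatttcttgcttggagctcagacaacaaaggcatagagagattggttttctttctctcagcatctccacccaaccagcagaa
The letters TAATTA stood in 1738 of 32851 promoter windows (5.29%). They were not in the windows of Dlx2, Gad1, Gad2, Islr2, Prokr2, Synpr, Meis2, Sox11 or Sp9. For Sp8, start site 3 held 1 copy and start sites 1 and 2 held 0. The share of 5.29% is per window, and some genes had more than 1 window. A match is a run of letters and not a shown binding site. Dlx5 and Stmn2 had no window in the table.

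Among kept brain cells, 5957 had none of the 6 neuroblast genes and 307 had exactly 1. Of the members, 383 had exactly 2 of them, 483 had 3, 422 had 4, 205 had 5 and 29 had all 6. Dlx1 was found in 1207 members (79.3%), Dlx2 in 651 (42.8%), Dlx5 in 333 (21.9%) and Dlx6os1 in 836 (54.9%). Dcx was found in 1048 (68.9%) and Stmn2 in 1027 (67.5%). All 57 possible combinations of 2 or more genes occurred, and the most frequent, Dlx1 with Dlx6os1, Dcx and Stmn2, held 129 members (8.48%). A Dlx-family gene, here and below Dlx1, Dlx2, Dlx5 or Dlx6os1, was found together with Dcx or Stmn2 in 1314 members. Another 134 members had Dlx-family genes alone, and 74 had Dcx and Stmn2 with no Dlx-family gene.

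**Figure D1:**
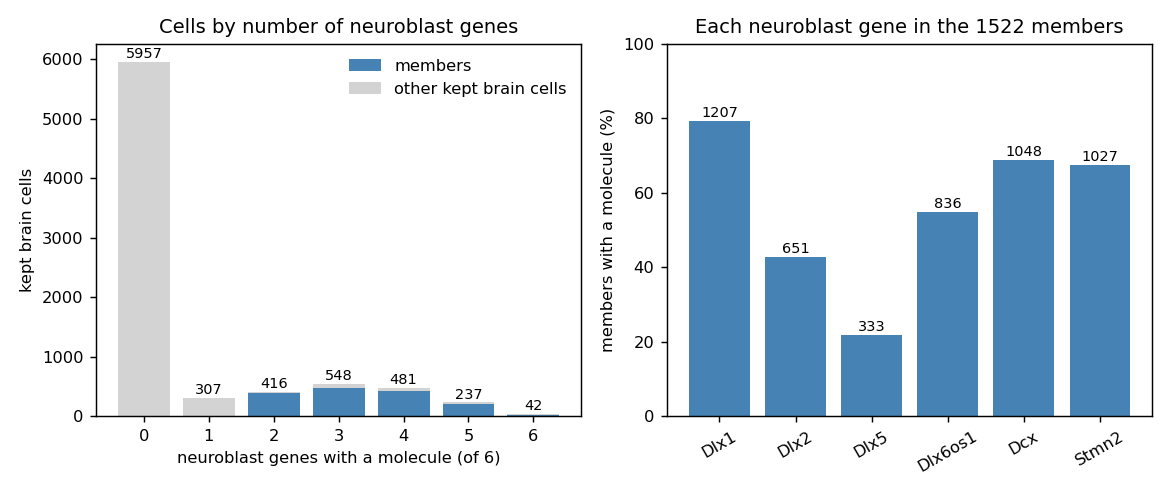
Left, kept brain cells by how many of the 6 neuroblast genes had a molecule, with the total above each bar. Right, the share of the 1522 members with each gene, with the number of cells above each bar. The bar at 0 holds 5957 cells, and Dlx1 is the gene found in most members (1207).

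Cells just inside and just outside the threshold differed by the rule itself. The 383 members with exactly 2 neuroblast genes had a median of 537 molecules, and the 281 kept cells with exactly 1 and too few division genes to count as cycling had a median of 566. Summed Islr2, Prokr2 and Synpr stood at 1287 CPM (counts scaled to the same total in each set of cells) in the former and 756 CPM in the latter. At the other limit, 71 members had exactly 1 division gene, and 44 cells with at least 2 neuroblast genes were left out for having exactly 2 division genes. In all, 249 kept brain cells had 2 or more division genes (cycling cells), and 202 of these also had 2 or more neuroblast genes.

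Genes of the forebrain GABAergic lineage that the rule did not name were high in the members. For each gene, molecules were summed over the members and over all other kept brain cells and compared as CPM. A gene was said to be higher or lower when its whole 95% interval lay beyond 4-fold, among 9800 genes with at least 50 molecules. Of these, 390 (3.98%) were higher and 704 (7.18%) lower in the members. The rule chose the members from the same cells, so nothing is read from these shares. The median log2 ratio of all tested genes was 0.29. By list, the median was 2.64 for subpallial and bulb factors, 3.73 for GABA genes, 3.12 for cytoskeletal genes, 2.19 for adhesion and guidance genes, 3.30 for SoxC factors, 1.52 for progenitor genes, 1.57 for maturing neuron genes and -3.94 for astroglial genes.

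Of 12 tested transcription factors of the subpallium and olfactory bulb lineage, 8 were higher and none lower. Meis2, a homeobox factor of olfactory bulb and striatal neurons, stood at 2161 CPM in members and 186 CPM in the others, a ratio of 11.6 (95% interval 10.8 to 12.5). For the zinc finger factors Sp8 and Sp9, which act in olfactory bulb interneuron development, the ratios were 18.5 (13.8 to 25.1) and 15.5 (13.3 to 18.2). Etv1, Tshz1 and Bcl11b were also higher, with ratios of 6.48, 5.97 and 17.1. Pax6, a factor of dopaminergic bulb interneurons, had a ratio of 2.63 (2.23 to 3.11) and did not pass. Factors of other ventral lineages were at or near 0: the members held 2 molecules of Nkx2-1, 9 of Lhx6, 2 of Isl1 and 1 of Ebf1.

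Genes for making and packaging GABA were high. Gad1, a GABA-synthesising enzyme, had 839 molecules in members (759 CPM) and 196 in the other cells (36.9 CPM), a ratio of 20.6 (17.6 to 24.2). Gad2, the second such enzyme, had a ratio of 19.6 (15.5 to 24.95), and Slc32a1, the vesicular GABA transporter, one of 13.4 (8.69 to 21.3). Abat, which degrades GABA, stood at 93.1 CPM in members and 261 CPM in the others, with no call. Summed over the 5 listed GABA genes the ratio was 0.907 (0.859 to 0.957), opposite in direction to the median of the list. Gad1, Gad2 or Slc32a1 was found in 806 members (53.0%).

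Of 16 genes of the neuronal microtubules and the growth cone, 12 were higher and none lower. Tuba1a, an alpha-tubulin of developing neurons, stood at 8587 CPM in members and 968 CPM in the others, a ratio of 8.87 (8.57 to 9.18). Tubb3, a neuronal beta-tubulin, had a ratio of 19.1 (17.2 to 21.3), and Map1b, a microtubule-associated protein of growing axons, one of 16.5 (15.0 to 18.2). Dpysl3, Dpysl5 and Crmp1, collapsin response mediators of growth cone guidance, had ratios of 11.4, 15.3 and 13.4. Map2, Mapt, Tubb2a and Dclk1 did not pass, with ratios of 3.09, 3.45, 1.54 and 1.09.

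Adhesion and guidance genes of migrating neuroblasts gave a mixed picture. Of 13 tested, 5 were higher and none lower. These were Cd24a, a surface protein of neuroblasts (ratio 11.3), St8sia2, which builds polysialic acid on NCAM (15.4), the Slit receptor gene Robo2 (16.4), the Cdk5 activator gene Cdk5r1 (17.8) and the synaptic adhesion gene Nrxn3 (9.49). Ncam1, the carrier of polysialic acid, stood at 1163 CPM in members and 744 CPM in the others. Erbb4, a neuregulin receptor, had a ratio of 1.68, and Robo1 one of 0.503.

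The SoxC factors, which promote neuronal differentiation, gave higher values for Sox4 with a ratio of 10.5 (9.88 to 11.1) and for Sox11 with 9.87 (9.35 to 10.4). Sox12 had a ratio of 3.34 and did not pass. Sox1 itself, whose activity the sort selected, had a molecule in 8.36% (6.96% to 9.94%) of 1388 members thinned at random to 400 molecules, and in 3.74% (3.27% to 4.26%) of 5882 thinned other cells. Without thinning the shares were 13.4% and 7.28%. None of 40 thinned microglia-like and none of 19 thinned oligodendrocyte-like cells had a Sox1 molecule. With so few cells the intervals reached 8.81% and 17.65%, and so held the shares of the members and of the other cells. The microglia-like and oligodendrocyte-like cells had median depths of 630 and 2629 molecules before thinning. In CPM, Sox1 stood at 207 in members and 98.0 in the others, and Sox2, a factor of neural stem cells, at 480 and 471.

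Among progenitor genes, Ccnd2, a cyclin of neuronal progenitors, stood at 3859 CPM in members and 481.5 CPM in the others, a ratio of 8.01 (7.63 to 8.42). Btg2, a gene of progenitors leaving division, had a ratio of 5.95 (5.10 to 6.94). The other 8 of the 10 genes did not pass. Egfr, a receptor of activated stem cells and transit-amplifying progenitors, stood at 19.9 CPM in members and 117.5 CPM in the others.

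Of 13 tested genes of maturing neurons, 5 were higher. They were the RNA-binding protein genes Elavl3 (ratio 11.9), Elavl4 (9.34) and Celf4 (15.0), and the synaptic genes Snap25 (5.76) and Syn1 (6.28). Genes of late maturation were rare: the members held 27 molecules of Rbfox3, 2 of Slc12a5 and 1 of Nefl. Of 10 subtype genes of olfactory bulb interneurons, Calb1, Th, Pvalb, Vip, Cck and Sst had no molecule in any member. That allows at most 3 molecules of each in 1106043. Calb2 had 18 molecules, Reln 10, Npy 8 and Penk 1.

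The genes ranked first by the nearer bound of the ratio were, in order, the long intergenic RNA Gm27032, Rem2, Islr2, Gad1, Myt1l, Tubb3, Cacna1c, Synpr, L1cam and Scrt1. Rem2, a small GTPase that acts on calcium channels, had 85 molecules in members and 11 in the other cells. Myt1l, a factor that keeps neurons from other fates, had a ratio of 23.2 (17.3 to 31.6), and L1cam, an axonal adhesion protein, one of 28.9 (15.9 to 56.6). Among lower genes, Steap3 had no molecule in members and 357 in the others, and so was at least 24.7-fold lower. Ttr also had none in members, but 393 of its 394 molecules in the others came from 1 cell.

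Cells thinned to 400 molecules gave the share of cells with each gene at equal depth. Gad1 was found in 28.0% of members, 6.05% of cycling cells and 1.003% of the other kept cells, and Sp9 in 21.6%, 12.1% and 0.952%. Neither was found in the 40 microglia-like or the 19 oligodendrocyte-like cells. Ccnd2 was found in 63.6% of members and 72.2% of cycling cells. Slc1a3, an astroglial glutamate transporter, was found in 6.20% of members, 12.1% of cycling cells, 79.5% of the other kept cells and 10.0% of microglia-like cells. The interval of the microglia-like share, from 4 of 40 cells, was 2.79% to 23.7% and held the share of members. Summed over cells that were not thinned, Slc1a3 stood at 533 CPM in members and 329 CPM in microglia-like cells, and 1 member held 57 of the 590 molecules. Whether these molecules came from the members themselves was not tested.

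**Figure D2:**
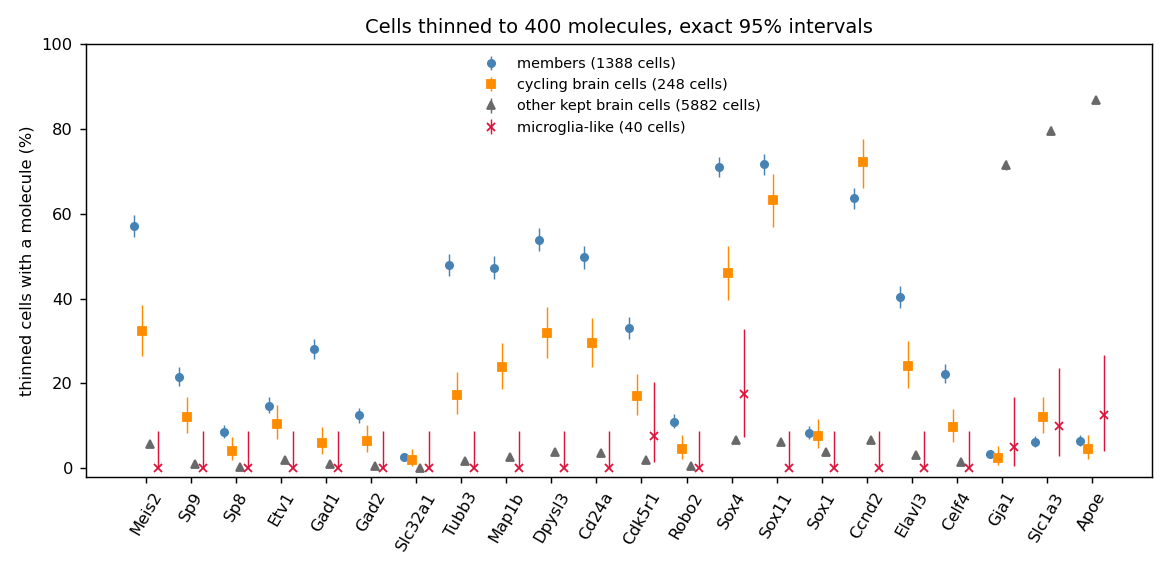
Share of cells with a molecule of each gene (vertical axis, percent) after thinning every cell to 400 molecules, in members, cycling cells, other kept brain cells and microglia-like cells. Bars are exact 95% intervals. Sp9, Gad1 and Tubb3 are highest in members, Ccnd2 is highest in cycling cells, and Gja1, Slc1a3 and Apoe are highest in the other cells.

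Of 12 astroglial genes, 11 were lower in members and Sox9 was not called. Their sum was 3164 CPM in members and 41240 CPM in the others. A molecule of at least 2 of the 12 was found in 217 members (14.3%) and of at least 3 in 109 (7.16%), against 6030 (93.3%) and 5926 (91.6%) of the other cells. Summed oligodendrocyte lineage genes stood at 157 CPM in members and 503 CPM in the others, with Cspg4 at 0 in members. Microglial genes summed to 21.7 and 240 CPM with C1qa at 0, and ependymal genes to 9.04 and 104 CPM with Ccdc153 and Rsph1 at 0. Endothelial genes had 1 molecule in members. Cerebellar granule cell genes summed to 115 and 99.1 CPM with Barhl1 at 0, and striatal projection neuron genes to 9.04 and 44.0 CPM with Drd1, Adora2a and Tac1 at 0.

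Genes that tissue dissociation is known to induce were high in the members. Of 8 tested, 7 were higher: Fos, Fosb, Jun and Atf3, subunits of the stress-responsive AP-1 and ATF factors, the zinc finger factor gene Egr1, and Ier2 and Dusp1, early response genes. Fos stood at 5547 CPM in members and 628 CPM in the others, a ratio of 8.83 (8.47 to 9.21). Summed over all 10 listed genes the level was 17340 CPM in members and 2009 CPM in the others, a ratio of 8.63 (8.43 to 8.84). Per 400 molecules of a cell, the median was 7 molecules in members, 4 in cycling cells and 0 in the others. It was 9 in microglia-like cells (22360 CPM) and 0 in oligodendrocyte-like cells (826.5 CPM). The heat shock genes Hspa1a and Hspa1b had 0 and 2 molecules in members. Activity-dependent and dissociation-induced expression share these genes, and their part in the other differences was not tested.

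**Figure D3:**
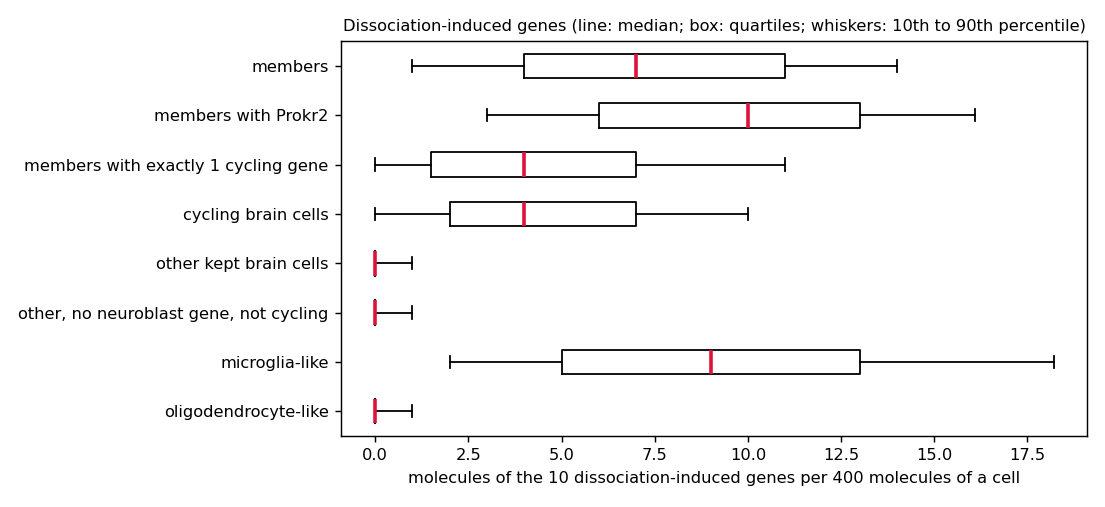
Molecules of the 10 dissociation-induced genes per 400 molecules of a cell (horizontal axis) in members, subsets of members and other brain cells. The line is the median, the box the quartiles and the whiskers the 10th to 90th percentile. The median is 7 in members, 9 in microglia-like cells and 0 in the other kept brain cells.

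Members with and without Islr2, Prokr2 or Synpr were then compared. Islr2 is an immunoglobulin and leucine-rich repeat protein of axon growth, Prokr2 a receptor needed for neuroblasts to reach the olfactory bulb, and Synpr (synaptoporin) a synaptic vesicle protein. At least 1 of them was found in 824 members, and 698 had none. Islr2 was found in 696, Synpr in 216 and Prokr2 in 74. Islr2 alone was found in 548, Islr2 with Synpr in 112, Synpr alone in 90, Prokr2 alone in 30, Islr2 with Prokr2 in 30, Prokr2 with Synpr in 8 and all 3 in 6. Cells with at least 1 had a median of 668 molecules and those with none 606.5, so depth moved with the split. In thinned cells Islr2 was found in 32.1% of members, 7.26% of cycling cells and 1.34% of the others.

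Few genes were apart. Of 4058 tested genes, 2 (0.0493%) were more than 2-fold higher by the whole interval in members with the 3 genes and 1 (0.0246%) was lower. Of the 2 higher genes, Ptgds, a prostaglandin synthase, had 53 molecules against 0 (at least 14.3-fold), but 52 of them came from 1 cell. Without the 2 members that held 2 or more of the myelin genes Mbp, Mog, Mag and Cldn11, a choice made after seeing the data, no gene was higher and 1 was lower. Both of those cells had Islr2, Prokr2 or Synpr. Summed oligodendrocyte lineage genes were at 198 and 107 CPM, microglial genes at 36.0 and 4.04 CPM, and ependymal genes had 10 molecules against 0. These sums came from few cells. At least 1 oligodendrocyte lineage gene was found in 29 of 824 cells (3.52%) and 26 of 698 (3.725%). Microglial genes were found in 4 and 2 cells, and ependymal genes in 4 and 0. The part of these genes in the split was not tested.

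Short of the threshold, Pax6 stood at 264 CPM in members with the 3 genes and 125 CPM in those without, a ratio of 2.11 (1.56 to 2.87). Pax6 was found in 16.6% (11.8% to 22.4%) of the 205 thinned cells with Synpr, in 8.59% (6.55% to 11.0%) of 652 with Islr2 and in 4.38% (2.90% to 6.30%) of 617 with none. Zic1, a zinc finger factor of the septum and olfactory bulb, had 53 molecules against 22, a ratio of 1.95 (1.17 to 3.37). Also short of the threshold, Rrm2, a ribonucleotide reductase subunit, had a ratio of 0.299 (0.172 to 0.501), and Hmgb2, a chromatin protein of dividing cells, one of 0.536 (0.440 to 0.651). Progenitor genes summed to a ratio of 0.818 (0.776 to 0.863), in which Ccnd2 stood at 3496 and 4306 CPM.

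By contrast, the ratio of GABA genes was 1.07 (0.970 to 1.19), that of SoxC factors 1.03 (0.986 to 1.08) and that of cytoskeletal genes 1.05 (1.03 to 1.07). Among the genes that chose the members, Dlx1 had a ratio of 1.01 (0.939 to 1.09), Dlx6os1 0.885 (0.794 to 0.986) and Dcx 1.07 (0.980 to 1.17). Dissociation-induced genes had a ratio of 1.16 (1.13 to 1.20), and the 74 members with Prokr2 reached 23310 CPM for these genes. Members with exactly 1 division gene stood at 11040 CPM and those with none at 17820 CPM.

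**Figure D4:**
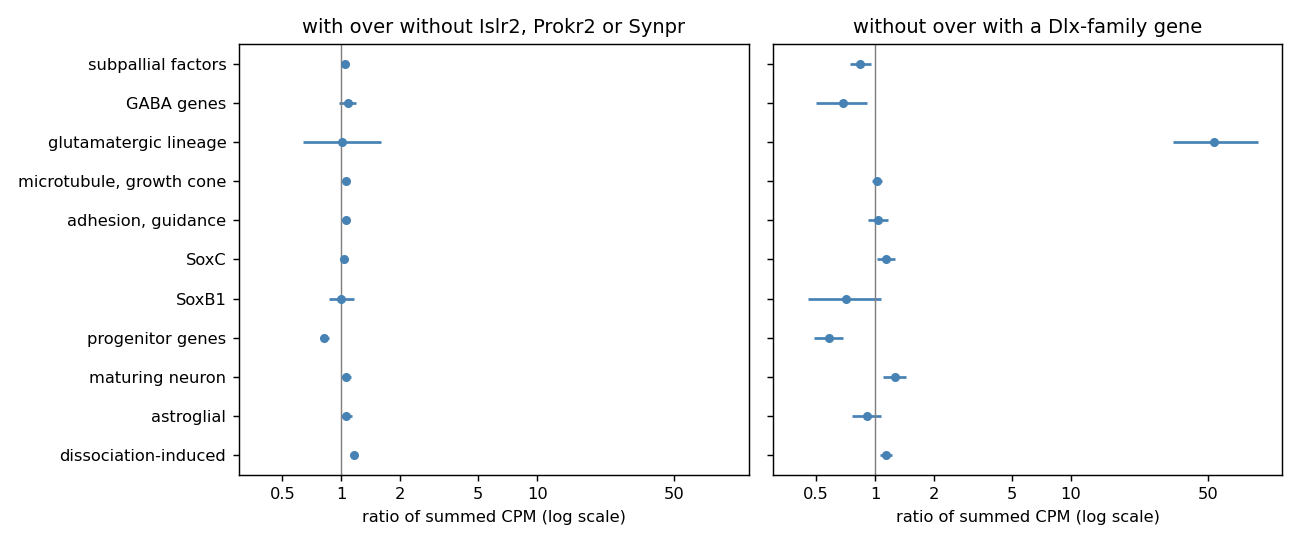
Ratio of summed CPM for 11 gene lists (horizontal axis, log scale, with 95% intervals) between members with and without Islr2, Prokr2 or Synpr (left) and between members without and with a Dlx-family gene (right). On the left all lists lie between 0.818 and 1.16. On the right the glutamatergic lineage list stands apart at 53.9.

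The 74 members without a Dlx-family gene all had Dcx and Stmn2. Their median depth was 589.5 molecules, against 648 in the members with such a gene. Whether a Dlx-family gene was present but missed in some of the 74 was not tested. Compared with the 1448 members that had a Dlx-family gene, 3 of 4061 tested genes (0.0739%) were more than 2-fold higher by the whole interval, and none (0.0%) was lower. Negr1, a neuronal growth adhesion protein, had 13 molecules against 52 and a ratio of 5.48 (2.74 to 10.2). Ttc28 had a ratio of 4.38 (2.64 to 6.97), and Sfrp1, a secreted Wnt modulator, one of 5.48 (2.55 to 10.8). Cytoskeletal genes had a ratio of 1.02 (0.969 to 1.08), GABA genes one of 0.682 (0.499 to 0.911) and progenitor genes one of 0.581 (0.488 to 0.687). Ccnd2 stood at 1760 and 3955 CPM, a ratio of 0.445 (0.355 to 0.552). The part that the required Dcx and Stmn2 had in these ratios was not tested.

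Genes of the glutamatergic lineage were concentrated in these cells. The 8 listed genes had 59 molecules in the 74 cells (1222 CPM) and 24 in the 1448 (22.7 CPM), a ratio of 53.9 (33.0 to 90.5). None of them reached 50 molecules among members, so none was in the test above. At least 1 was found in 12 of 74 cells (16.2%, 8.67% to 26.6%) and in 10 of 1448 (0.691%, 0.332% to 1.27%). Neurod1, a driver of granule neuron differentiation, had 28 of its 32 member molecules in 7 of these cells. Eomes, a factor of intermediate glutamatergic progenitors, had 9 of 20, and Slc17a6, a vesicular glutamate transporter, 7 of 10. Among the 40 thinned microglia-like cells none had Neurod1 or Eomes, with an interval up to 8.81%. That holds the shares of all thinned members, 0.432% and 0.504%, so no contrast is read from it.

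The 12 cells held 12162 molecules, with 494 to 1539 per cell (median 1002), and none of Gad1, Gad2, Slc32a1, Sp8, Sp9 or Etv1. The other 62 cells without a Dlx-family gene had a median of 563 molecules. Meis2 had 9 molecules in 4 of the 12 (33.3%). By counts, Neurod1 had 6, 6, 5, 5 and 4 molecules in 5 cells, 1 in each of 2 more and none in the other 5. Calb2, which young granule neurons also express, had 10 molecules in 4 of the 12, and 0 in the other 62 cells without a Dlx-family gene. Ccnd2 had 1 molecule in the 12. Sox11 was found in 11 of the 12 and Fos in 10. In the other 62 cells, Sp9 was found in 14, Meis2 in 45 and Gad1 in 20, shares of 22.6%, 72.6% and 32.3%. In the 1438 members with a Dlx-family gene and no glutamatergic gene they were 33.1%, 72.0% and 40.9%. Where the 12 cells sat in the brain was not measured.

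Without the 22 members that had a glutamatergic lineage gene, again a choice made after seeing the data, no gene was more than 2-fold apart between members without and with a Dlx-family gene, and the ratio of Negr1 was 0.556 (0.0138 to 3.24). Negr1 had 12 of its 13 molecules, Sfrp1 9 of 11 and Ttc28 15 of 22 in the 12 cells. The other Dlx-free cells had 1 Negr1 molecule. Among the 10 cells with both a Dlx-family gene and a glutamatergic gene, Meis2 was found in 9, Gad1 in 4 and Neurod1 in 1.

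**Figure D5:**
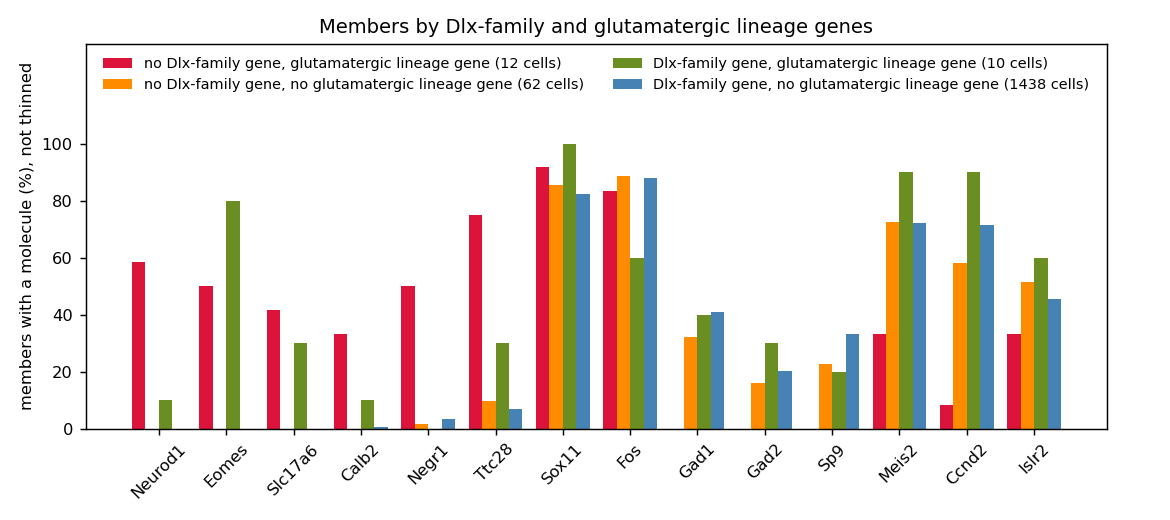
Share of members with a molecule of each gene (vertical axis, percent, cells not thinned), in 4 sets of members by whether a Dlx-family gene and a glutamatergic lineage gene was found. The latter includes Neurod1, Eomes and Slc17a6, so their bars follow from the sets. The 12 Dlx-free cells with such a gene lack Gad1, Gad2 and Sp9, while Gad1 is found in 32.3% of the other 62 Dlx-free cells and 40.9% of the 1438.

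In the tail library, 102 of 1964 kept cells (5.19%, 4.25% to 6.27%) met the same rule. Of these, 99 had both Dcx and Stmn2 and 3 had a Dlx-family gene, against 1448 of the 1522 brain members. Dlx1 and Dlx2 had no molecule in the 102, nor had Etv1. GABA genes, however, summed to 1408 CPM in brain members and 1376 CPM in the tail cells, a ratio of 1.02 (0.893 to 1.175). Gad1 stood at 759 and 635 CPM, Meis2 at 2161 and 1567 CPM, and Slc32a1 at 73.2 and 191 CPM. Subpallial and bulb factors summed to 6350 and 2444 CPM. Cytoskeletal genes were at 26150 CPM in brain members and 26790 CPM in the tail cells, and maturing neuron genes at 3702 and 5371 CPM. The median depth of the tail cells was 1666 molecules. Tissue, age and library cannot be told apart in this contrast.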

How the data were processed

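Capture of single Sox1-GFP+ brain and tail cells used the BD Rhapsody system. The deposited values are the authors' counts of molecules per gene and cell. Per the file headers, the BD Rhapsody WTA Analysis Pipeline 1.10.1 was used on GRCm38 with the GENCODE vM19 annotation, while the methods of the study name another version. The submitters' processing notes also list UMI-tools 1.0.1, STAR 2.7.1a and featureCounts 1.6.4.

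Error-corrected molecules were used. Filters on genes and mitochondrial molecules followed the study's methods. The file held 12111 brain barcodes, and kept brain cells had a median of 696 molecules. Molecules were summed over cells and scaled to CPM. Ratios have conditional exact binomial and shares exact Clopper-Pearson 95% intervals. These cover counting error only. Cells thinned to 400 molecules left out 134 members and 584 other brain cells. Comparison classes needed at least 2 markers and, except for the cycling cells, fewer than 2 neuroblast genes. A limit of 3 counts was used for a count of 0, over the group.

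The members and gene lists were chosen with earlier results of these data known. The genes named are those of 22 lists and the 10 ranked first in each direction of 3 comparisons, by the bound nearer to 1. Some genes that met the rule are not reported here. Gene positions came from GENCODE vM21 by symbol (225 of 226 matched to 1 gene).

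Scrublet (scanpy 1.11.5, expected rate 0.05) called doublets. Alternatives used scaling by edgeR 4.0.16 (TMM) and DESeq2 1.42.0 (median ratio) in R 4.3.3. Neither tool was used for a test.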

Additional observations from a re-analysis of the deposited data

Results flagged for a closer look

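Of the 4123 brain barcodes that the filters removed, 7 met the rule for members (0.170%, exact 95% interval 0.0683% to 0.350%). They drew attention because they lie in data outside every comparison above. The 7 had a median of 237 molecules, of which a median of 39.6% were mitochondrial.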

How the results depend on the processing

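The share of kept brain cells that were members was 24.0% with under 20% mitochondrial molecules allowed, 14.3% with at least 3 neuroblast genes asked and 16.2% with the rule applied to thinned cells. It changed by less than its interval without doublets or before error correction. The Sox1 shares without thinning were 13.4% in members and 7.28% in other cells. The count of genes more than 4-fold apart between members and others (1094) lay between 826 and 1460 under 10 alternatives. Under TMM scaling 20.1% and under median ratio scaling 21.3% of the called genes were higher in members, against 35.6%, since these moved every log2 ratio by -0.39 and -0.34. They moved it by -0.26 and -0.23 between members without and with a Dlx-family gene.

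For the split by Islr2, Prokr2 or Synpr (3 genes), 11 genes passed with no minimum of molecules, 1 with a minimum of 200, 0 in thinned cells and 1 without the members with myelin genes. For the split by Dlx-family genes (3 genes), 8 passed with TMM, 7 with median ratio scaling, 57 with no minimum, 0 with a minimum of 200, 1 in thinned cells, 6 with under 20% mitochondrial molecules, 0 with at least 3 neuroblast genes, 7 without doublets and 0 without the members with a glutamatergic gene.

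The direction turned for the SoxB1 sum between members and others (0.905 with TMM, 0.935 with median ratio) and for Ptgds (0.218 in thinned cells). It also turned for the glutamatergic sum between members and others, from 2.61 to 0.694 with at least 3 neuroblast genes. Between members without and with a Dlx-family gene it turned for SoxC (0.952 and 0.977 with the 2 scalings), dissociation-induced genes (0.948 and 0.973), subpallial factors (1.05 without the members with a glutamatergic gene) and Negr1 (0.556 there). The causes were not tested beyond these constructions. The settings that left out members with myelin, division or glutamatergic genes, or limited the other cells to those with no neuroblast gene and not cycling, were chosen after seeing the data. No paired analysis was possible, because the brain groups were cells of the same 1 library and each tissue had 1 library. At a median of 644 molecules per member, genes with few molecules per cell were missed in most cells.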
